A study of Mus musculus with 36 samples.

Results

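The 41 genes described here encode the machinery of the cell division cycle in mouse embryonic fibroblasts (MEFs), primary cells grown out of minced embryos. They were taken by name from the count table as genes of the G1/S transition, DNA replication and mitosis, and the rule itself uses no measured value. The names were, however, listed with earlier results of these data known. Counts of these genes set against all genes are therefore not independent of the data. The table holds 55487 genes, of which 15489 passed the filter on low counts and were tested. Each of the 41 genes was among those tested. Expression was measured by RNA sequencing in 36 libraries from MEFs that carry different forms of the glucocorticoid receptor (GR) and that received vehicle or 1 µM of the synthetic glucocorticoid dexamethasone (Dex) for 5 h. The questions were whether Dex changed the cell cycle genes in each genotype, and how the untreated cultures compared. A further question was whether the change with Dex differed from that in wild-type cells of the same run.

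Cells enter the cycle when D-type cyclins (Ccnd1, Ccnd2, Ccnd3) activate the kinases Cdk4 and Cdk6, which phosphorylate the retinoblastoma protein and release E2F factors. E2F then drives cyclin E, the proteins that license replication origins and the enzymes that make deoxynucleotides. Later, the MYB-MuvB and FOXM1 complexes drive the genes of G2 and mitosis, largely through promoters that hold CCAAT boxes and a cell cycle genes homology region (CHR). Glucocorticoids are known to restrain the proliferation of many cell types, fibroblasts among them, through a receptor that acts on DNA both as a dimer and as a monomer. In bulk cultures the level of such transcripts reflects both the share of cells in cycle and the amount of each transcript per cycling cell, and these cannot be told apart here.

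The series comprised 12 groups of 3 libraries. The paper states that the experiment was done in 2 parts, called runs here, and sequenced on the same machine. In run 1, GRwt/wt, GRD/D, GRD+L/D+L and GRko/ko MEFs were profiled, and in run 2 GRwt/wt and GRL/L MEFs, each with vehicle and with Dex. D is a point mutation in the dimer interface of the DNA-binding domain, L a point mutation in the ligand-binding domain, D+L carries both in one receptor, and ko is a loss-of-function allele. All mutant cells were homozygous for a germline allele. The paper states that each of the 3 cultures of a genotype came from a different mouse. The L and D+L alleles were made by genome editing in FVB/NJ zygotes that carried D on one copy. The labels give FVB/NJ for every library, whereas the methods name a 129 strain for the mice that carry the ko allele, so strain and the loss of GR cannot be told apart.

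Total counts ran from 15280166 to 19102035 per library in run 1 and from 21532686 to 28662608 in run 2. Nr3c1, which encodes GR, stood at 15.9 to 20.4 normalised CPM (counts scaled to library sizes corrected by TMM) in the 6 GRko/ko libraries and at 47.8 or above in all others. The direct GR target Fkbp5 rose with Dex by 2.58 on the log2 scale in GRwt/wt of run 1, by 3.70 in GRwt/wt of run 2, by 3.29 in GRL/L, by 1.07 in GRD/D and by 0.99 in GRD+L/D+L (edgeR quasi-likelihood test with Benjamini-Hochberg adjustment, largest adjusted p = 2.17e-12). Its log2 change in GRko/ko was -0.02 (edgeR adjusted p = 0.991). Some replicates stood apart from their group. Between GRwt/wt Dex replicate 4 of run 2 and replicates 5 and 6 the chi-square of counts per gene was 16.4 and 19.5, against 1.78 between replicates 5 and 6. Between GRD/D vehicle replicates 2 and 3 it was 26.5, and their fibroblast marker sums were 32800 and 49400 CPM, while all pairs in other groups were at 7.61 or below. In GRwt/wt vehicle replicate 6 of run 2 the epithelial marker sum was 49.1 CPM, against 4.09 and 4.7 CPM in replicates 4 and 5. The cultures also differed in sex and in cell makeup. Xist lay between 165 and 305 CPM and the sum of 4 Y-linked genes at 2.07 CPM or below in the 12 libraries of GRwt/wt run 1 and GRD/D, whereas Xist was at 14.1 CPM or below and the Y-linked sum at 136 CPM or above in the other 24 libraries. Sex and genotype therefore cannot be told apart when GRD+L/D+L or GRko/ko is set against GRwt/wt of run 1. The replicates of each genotype and run shared the same sex, and whether their spread covers that between mice was not tested. The summed level of 14 macrophage markers ran from 42.4 CPM in a GRD+L/D+L library to 4260 CPM in a GRko/ko library, against a sum of 31000 CPM or more for 8 fibroblast markers in every library.

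Per unit of transcript length the 41 genes covered a wide range. Over the 18 vehicle libraries, the mean level was 106 RPKM (CPM per kilobase of exon) for Cdk4, 96.6 for Ccnd2 and 79.9 for Ccnd1. Rrm2, the small subunit of ribonucleotide reductase, followed at 46.3 RPKM. The lowest level was that of the transcription factor E2f2, at 0.62 RPKM, with as few as 21 reads in 1 library. Values of E2f2 are therefore the least precise of the set. Exons of other genes lie on the opposite strand of 29.3% of the exonic length of Kif20a, 23.4% of Ccnd1, 19.7% of Cdk4 and 17.4% of Ccne2, and the strand setting of the counting is not given in the sources used here, so part of their counts may belong to those neighbours.

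Promoter windows were available for 33 of the 41 genes in RefSeq (assembly GRCm38.p6, which is mm10), as 36 windows that span 250 bases before to 50 bases after an annotated start site. Those of 5 genes are shown because their genes carried the changes described next: Rrm2 (chr12:24708004-24708303, + strand) and Ccnd3 (chr17:47504801-47505100, + strand) rose with Dex, Kif11 (chr19:37376132-37376431, + strand) and Bub1b (chr2:118597961-118598260, + strand) differed in their Dex response, and Mcm6 (chr1:128359656-128359955, - strand) differed between vehicle cultures. Each is written 5′ to 3′ in the direction of its gene, and capitals mark the motif matches given after the sequences.
Rrm2: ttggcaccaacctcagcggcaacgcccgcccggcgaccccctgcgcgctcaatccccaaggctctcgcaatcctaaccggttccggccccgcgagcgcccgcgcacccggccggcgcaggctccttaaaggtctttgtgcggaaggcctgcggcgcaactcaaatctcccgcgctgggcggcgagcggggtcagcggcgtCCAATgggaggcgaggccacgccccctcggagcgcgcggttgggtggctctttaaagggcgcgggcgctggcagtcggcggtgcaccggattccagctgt
Ccnd3: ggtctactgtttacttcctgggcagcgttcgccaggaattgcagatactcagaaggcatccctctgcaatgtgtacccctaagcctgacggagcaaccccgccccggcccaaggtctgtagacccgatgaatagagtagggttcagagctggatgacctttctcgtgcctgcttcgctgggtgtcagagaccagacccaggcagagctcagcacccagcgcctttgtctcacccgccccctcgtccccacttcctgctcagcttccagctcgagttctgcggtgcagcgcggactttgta
Mcm6: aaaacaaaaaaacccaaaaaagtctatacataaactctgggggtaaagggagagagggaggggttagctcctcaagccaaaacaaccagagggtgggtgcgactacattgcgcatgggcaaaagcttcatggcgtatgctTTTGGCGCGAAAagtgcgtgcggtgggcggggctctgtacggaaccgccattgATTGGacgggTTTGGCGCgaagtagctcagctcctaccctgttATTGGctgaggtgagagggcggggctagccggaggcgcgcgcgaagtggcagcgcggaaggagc
Bub1b: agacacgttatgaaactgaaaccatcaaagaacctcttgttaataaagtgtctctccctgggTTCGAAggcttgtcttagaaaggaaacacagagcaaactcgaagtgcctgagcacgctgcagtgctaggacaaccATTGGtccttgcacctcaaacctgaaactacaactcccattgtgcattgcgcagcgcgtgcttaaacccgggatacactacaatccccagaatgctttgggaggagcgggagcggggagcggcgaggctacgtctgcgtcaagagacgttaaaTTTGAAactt
Kif11: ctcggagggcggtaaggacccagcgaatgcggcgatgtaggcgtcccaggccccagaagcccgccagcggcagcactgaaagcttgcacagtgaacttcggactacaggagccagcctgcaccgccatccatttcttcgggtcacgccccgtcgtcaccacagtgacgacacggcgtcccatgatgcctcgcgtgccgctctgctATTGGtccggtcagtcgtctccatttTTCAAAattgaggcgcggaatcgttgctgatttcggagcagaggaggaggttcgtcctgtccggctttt

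Both strands were searched for 4 kinds of motif. The E2F words were TTTCCCGC, TTTCGCGC, TTTGCCGC and TTTGGCGC, which can overlap each other in a palindromic site. At least one occurred in 9 of the 36 windows (25.0%), against 2.26% of all 32851 promoter windows in the table. Among the 18 windows of G1/S, licensing and S-phase genes, 8 held one, including those of Cdc6, Cdt1, Mcm3, Mcm5, Mcm6 and Mcm7. The CHR words TTTGAA and TTCGAA occurred in 11 of the 14 windows of G2/M, spindle and proliferation marker genes (78.6%), against 19.2% of all windows. The CCAAT box occurred in 13 of those 14 (92.9%) and in 12 of the 18 G1/S, licensing and S-phase windows (66.7%), against 37.4% of all windows. The hexamer TGTTCT, one arm of the palindrome that a GR dimer binds, was present in 5 of the 36 windows (13.9%), those of Ccne1, Cdk6, Plk1, Cdc20 and Cenpe, against 19.0% of all windows. Of the printed windows, that of Rrm2 held 1 CCAAT box at -50 to -46 from the start site and the first of the 2 Ccnd3 windows held no match. In Mcm6 2 overlapping E2F words on opposite strands span -110 to -99 and a further E2F word lies at -47 to -40. In Kif11 a CHR word lies at -19 to -14 and a CCAAT box at -45 to -41, and in Bub1b CHR words lie at -188 to -183 and at 40 to 45 and a CCAAT box at -113 to -109. These matches describe the letters in the windows and were given no test.

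**Figure D1:**
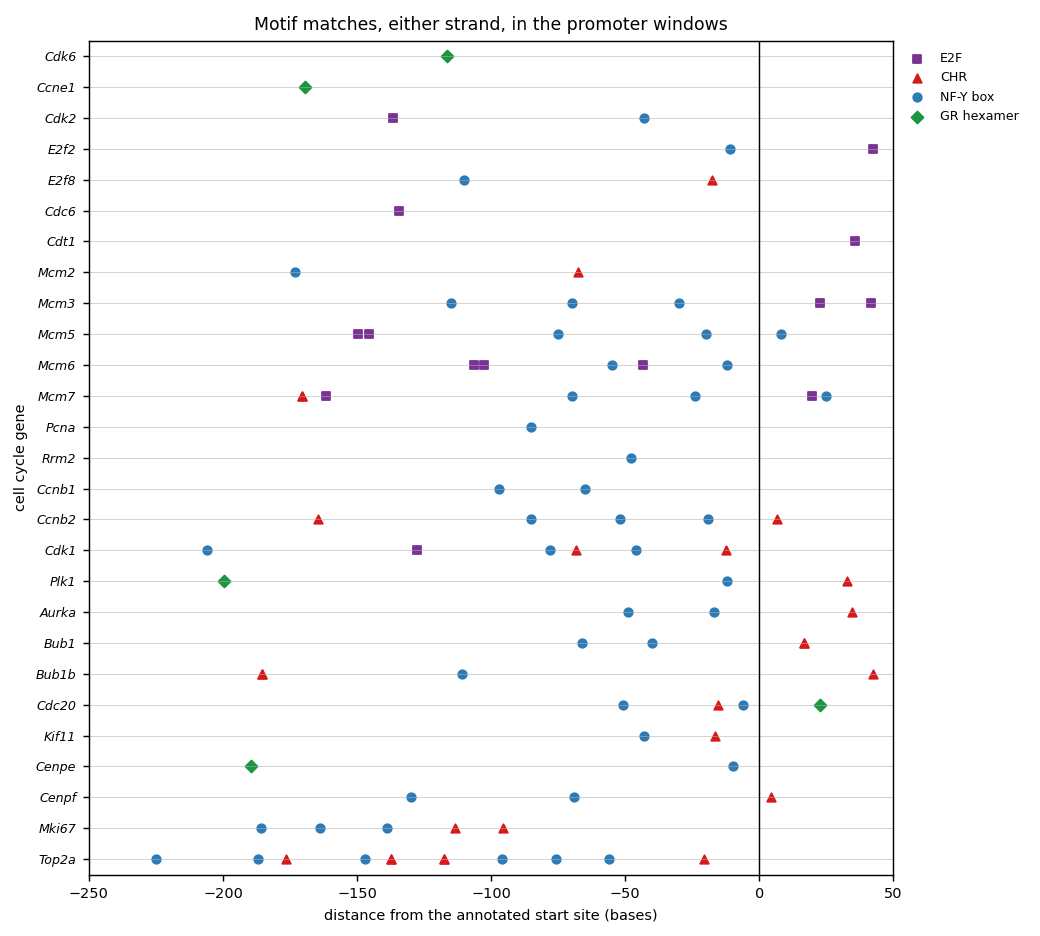
Positions of E2F words, CHR words, CCAAT boxes (NF-Y box) and the GR hexamer, on either strand, by distance in bases from the annotated start site (0) in the first promoter window of each of the 27 cell cycle genes with a match. CCAAT boxes appear in rows of both mitotic and licensing genes, CHR words mostly in mitotic rows and E2F words mostly in licensing rows.

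In GRwt/wt cells of run 1, Dex raised 2 D-type cyclins and Rrm2 and lowered 1 mitotic motor, and 37 of the 41 genes did not pass the test at an adjusted p of at most 0.05. Of the 41, 3 were called higher (7.32%, against 7.74% of all genes tested) and 1 lower (2.44%, against 6.20%). The median log2 change of the 41 genes was -0.05. Cyclin D1 (Ccnd1, chr7:144929931-144939925) stood at 363, 365 and 398 CPM with vehicle and at 536, 542 and 571 CPM with Dex. All Dex libraries lay above all vehicle libraries, a log2 change of 0.55 ± 0.047 (SE, n = 3 against 3, edgeR adjusted p = 1.07e-11). Cyclin D3 (Ccnd3) went from 166, 171 and 185 CPM to 205, 205 and 210 CPM, a log2 change of 0.25 ± 0.041 (edgeR adjusted p = 2.14e-05). Rrm2, which supplies deoxynucleotides for DNA synthesis, rose from 160, 161 and 178 CPM to 233, 243 and 260 CPM, a log2 change of 0.56 ± 0.054 (edgeR adjusted p = 2.7e-10). The groups did not overlap for any of these genes, which adds no support as they were called on the same libraries. Kif11, the kinesin that separates the spindle poles, fell from 28.5, 30.2 and 31.3 CPM to 21.0, 22.9 and 24.9 CPM, a log2 change of -0.39 ± 0.068 (edgeR adjusted p = 5.33e-05). All 4 calls held when any 1 of the 6 libraries was left out.

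The same 3 genes rose in GRwt/wt cells of run 2, where 17 further genes fell. The 3 higher calls (7.32%) stood against 14.9% of all genes tested, and the 17 lower calls (41.5%) against 16.7%. The median log2 change of the 41 genes was -0.14, beside -0.01 for all genes tested. Ccnd1 went from 254, 270 and 273 CPM to 400, 406 and 426 CPM, a log2 change of 0.63 ± 0.046 (edgeR adjusted p = 9.94e-14). Rrm2 went from 109, 110 and 123 CPM to 169, 175 and 186 CPM, a log2 change of 0.64 ± 0.054 (edgeR adjusted p = 3.56e-12). Ccnd3 rose from 112, 114 and 114 CPM to 161, 162 and 169 CPM. Its log2 change of 0.54 exceeded that of run 1 by 0.29 ± 0.058 (edgeR adjusted p of the difference = 0.000705), and this difference held without each library in turn.

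The genes that fell in GRwt/wt of run 2 came from G1, S phase and mitosis, and their log2 changes lay between -0.37 and -0.14. In G1 it was cyclin D2 (Ccnd2), which went from 621, 646 and 649 CPM to 435, 522 and 524 CPM, a log2 change of -0.37 ± 0.056 (edgeR adjusted p = 1.43e-06). Ccnd2 thus moved against the other D-type cyclins in the same libraries. Of the 6 genes of the G1/S transition, Cdk2 (-0.23) and the repressor E2f8 (-0.32) fell. Of the 8 licensing genes, the helicase subunits Mcm2, Mcm3, Mcm4 and Mcm5 fell, by 0.14 to 0.19 on the log2 scale. Thymidine kinase (Tk1, -0.27) and thymidylate synthase (Tyms, -0.29), both makers of thymidine nucleotides, fell while Rrm2 rose.

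Mitotic genes made up 8 of those 17. Cenpe, a kinetochore motor, went from 54.5, 55.4 and 58.1 CPM to 40.2, 45.4 and 47.1 CPM, a log2 change of -0.34 ± 0.076 (edgeR adjusted p = 0.000534). The spindle checkpoint kinase Bub1b went from 50.7, 54.1 and 54.7 CPM to 39.5, 43.9 and 46.2 CPM, a log2 change of -0.30 ± 0.052 (edgeR adjusted p = 1.83e-05). Topoisomerase Top2a, which untangles replicated chromosomes, fell from 185, 189 and 192 CPM to 154, 162 and 163 CPM, a log2 change of -0.24 (edgeR adjusted p = 2.88e-05). In each of these genes the Dex libraries lay below all vehicle libraries, which adds no support to calls made on the same libraries. Aurka, Bub1, Kif20a, Cenpf and Mki67 were the others, with log2 changes of -0.26 to -0.15. In contrast, none of Ccna2, Ccnb1, Ccnb2 and Cdk1, the cyclins and kinase that drive mitotic entry, passed the test. Without Dex replicate 4, which stood apart, 3 genes were higher and 14 lower. Of the 20 calls, 12 held without each library in turn, and E2f8, Mcm3, Mcm4, Tk1, Aurka, Bub1, Cenpf and Mki67 lost their call in at least 1 such fit.

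**Figure D2:**
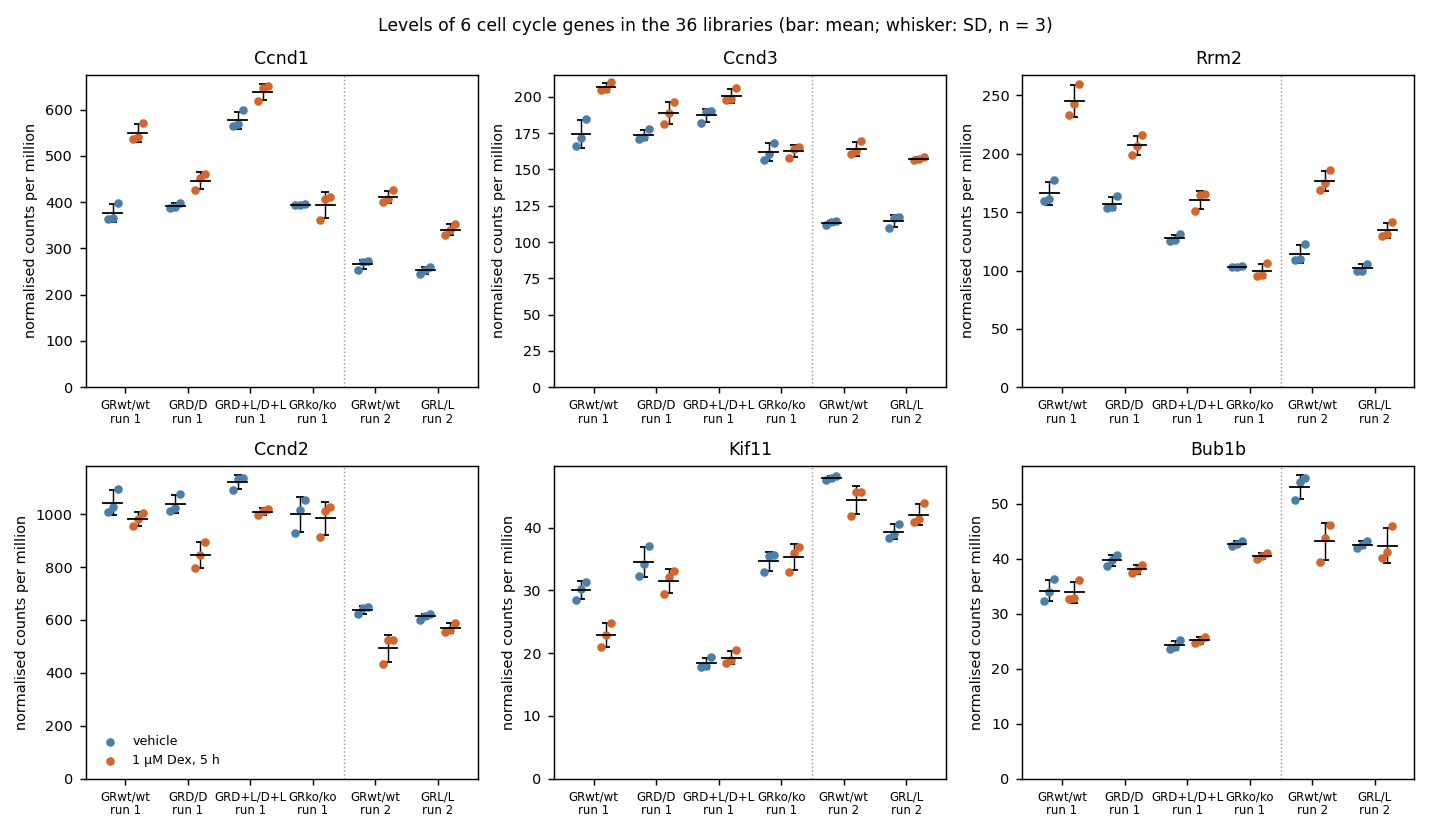
Normalised CPM of Ccnd1, Ccnd3, Rrm2, Ccnd2, Kif11 and Bub1b in each of the 36 libraries, by genotype and run (vehicle in blue, Dex in orange, bar for the mean and whisker for the SD, n = 3, axes from 0). Ccnd1, Ccnd3 and Rrm2 sit higher with Dex in every genotype but GRko/ko, while Kif11 separates with Dex most in GRwt/wt of run 1.

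In GRL/L cells, whose receptor is changed in the ligand-binding domain, Ccnd1, Ccnd3 and Rrm2 rose again and no mitotic gene was called. In all, 3 genes were called higher (7.32%, against 8.79% of all genes tested) and 3 lower (7.32%, against 10.4%). Ccnd1 went from 246, 253 and 260 CPM to 329, 340 and 354 CPM (log2 change 0.43 ± 0.046, edgeR adjusted p = 2.86e-09). Ccnd3 went from 110, 117 and 117 CPM to 156, 157 and 159 CPM (log2 change 0.46 ± 0.041, edgeR adjusted p = 2.42e-11). Rrm2 rose from 99.8, 99.98 and 106 CPM to 130, 132 and 142 CPM (log2 change 0.40 ± 0.054, edgeR adjusted p = 3.58e-07). The lower calls were all licensing genes: the licensing factor Cdt1 (-0.30), Mcm4 (-0.18) and Mcm6 (-0.14), and all 3 were lost without Dex replicate 2, which left 3 calls. None of the 18 G2/M, spindle and marker genes passed the test in GRL/L, and their summed level was 882 to 907 CPM with vehicle and 880 to 916 CPM with Dex. In GRwt/wt of run 2 that sum was 1035 to 1072 CPM with vehicle and 940 to 961 CPM with Dex.

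Set against GRwt/wt of the same run, only the Dex response of Bub1b differed in GRL/L at the threshold, with 1 gene higher (2.44%, against 0.646% of all genes tested) and none lower (against 1.20%). At an unadjusted p under 0.05 edgeR gave 9 genes higher and 3 lower, and DESeq2 called 1 higher and none lower. Here and below, the share of all genes was not counted at an unadjusted p or for DESeq2. Such counts are therefore not read as a result about the 41 genes. Bub1b was at 42.0, 42.5 and 43.2 CPM with vehicle and 40.1, 41.2 and 46.0 CPM with Dex in GRL/L, so its groups overlapped there. The response difference was 0.29 ± 0.074 on the log2 scale (95% interval 0.14 to 0.44, edgeR adjusted p = 0.0252). It was lost in 6 of 12 fits that left out 1 library, those without GRL/L Dex replicate 1 (edgeR adjusted p = 0.14), GRL/L vehicle replicate 1 or 2, GRwt/wt Dex replicate 4 or GRwt/wt vehicle replicate 5 or 6. The smaller responses of Ccnd1 (difference -0.20, interval -0.33 to -0.07) and Rrm2 (-0.24, interval -0.39 to -0.08) in GRL/L missed the threshold (edgeR adjusted p = 0.128 and 0.112). So did the opposite difference of Ccnd2 (0.26, edgeR adjusted p = 0.0778).

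In GRD/D cells, whose receptor is changed in its DNA-binding dimer interface, Rrm2 rose by 0.40 on the log2 scale. Of the D-type cyclins, Ccnd1 and Ccnd3 rose by 0.19 and 0.12, and Ccnd2 fell. By count, 3 genes were higher (7.32%, against 5.63% of all genes tested) and 5 lower (12.2%, against 6.24%). Rrm2 went from 153, 155 and 164 CPM to 199, 207 and 216 CPM (log2 change 0.40 ± 0.054, edgeR adjusted p = 1.28e-06). Ccnd1 went from 386, 390 and 399 CPM to 426, 453 and 461 CPM (log2 change 0.19 ± 0.047, edgeR adjusted p = 0.00512). Ccnd3 rose from 171, 173 and 178 CPM to 182, 189 and 196 CPM, a log2 change of 0.12 just under the threshold (edgeR adjusted p = 0.0492) that was lost without Dex replicate 2 (adjusted p = 0.249). The genes that fell were Ccnd2 (-0.30) and the mitotic genes Bub1 (-0.33), Cenpe (-0.33), Cenpf (-0.25) and Top2a (-0.18). Ccnd2 fell from 1013, 1024 and 1078 CPM to 796, 847 and 894 CPM (edgeR adjusted p = 0.000217). Only Ccnd1, Ccnd2 and Rrm2 were called without each library in turn. The count of 8 dropped to 3 without Dex replicate 2, to 4 without vehicle replicate 2 and to 5 without Dex or vehicle replicate 3.

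Ccnd1 was the single gene of the 41 whose response in GRD/D differed from that in GRwt/wt of run 1. It gave 1 lower call (2.44%, against 2.20% of all genes tested) beside none higher (against 1.08%), with 1 gene higher and 4 lower at an unadjusted p under 0.05, and DESeq2 also called 1 lower and none higher. The difference was -0.36 ± 0.066 on the log2 scale (interval -0.50 to -0.23, edgeR adjusted p = 0.000374), and it held without each library in turn. For Rrm2 the difference was -0.16 with an interval of -0.32 to -0.01, and for Ccnd3 it was -0.13 with an interval of -0.24 to -0.01. Neither passed (edgeR adjusted p = 0.388 and 0.371), and each interval reaches nearly to 0.

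In the double mutant GRD+L/D+L, Rrm2 was the only one of the 41 genes called with Dex. That is 1 higher call (2.44%, against 3.08% of all genes tested) and 0 lower (against 1.92%), with 4 higher and 1 lower at an unadjusted p under 0.05. DESeq2 called 2 higher and none lower. Rrm2 went from 125, 126 and 131 CPM to 151, 164 and 166 CPM, without overlap (log2 change 0.33 ± 0.056, edgeR adjusted p = 6.53e-05). Ccnd1 went from 564, 568 and 599 CPM to 618, 646 and 650 CPM, also without overlap, but its log2 change of 0.15 did not pass (edgeR adjusted p = 0.0625). The responses of 2 genes differed from those in GRwt/wt of run 1, with 1 lower (2.44%, against 1.98%) and 1 higher (2.44%, against 1.26%). They were Ccnd1 (-0.40 ± 0.066, edgeR adjusted p = 5.85e-05) and Kif11 (0.46 ± 0.10, edgeR adjusted p = 0.00434). Kif11 was at 17.8, 17.96 and 19.4 CPM with vehicle in GRD+L/D+L and at 18.4, 19.0 and 20.5 CPM with Dex. The Rrm2 difference of -0.23 did not pass (interval -0.39 to -0.07, edgeR adjusted p = 0.121).

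In GRko/ko cells none of the 41 genes was called with Dex in either direction. Here 0 of all genes tested were called, so the background share was 0 as well. By edgeR, no gene was higher and 2 were lower at an unadjusted p under 0.05, and DESeq2 called none. These 2 were Cenpf (log2 change -0.29, edgeR adjusted p = 0.566) and Mki67 (-0.23, adjusted p = 0.649), named after their values were seen, and their vehicle and Dex groups overlapped. Ccnd1 was at 394, 395 and 396 CPM with vehicle and at 361, 407 and 412 CPM with Dex. Rrm2 stayed between 102 and 104 CPM with vehicle and lay at 95.4, 96.5 and 107 CPM with Dex. The responses of 4 genes differed from GRwt/wt of run 1, with 3 lower (7.32%, against 4.68%) and 1 higher (2.44%, against 3.80%). The lower ones were Ccnd1 (-0.56 ± 0.066, edgeR adjusted p = 7.35e-08), Ccnd3 (-0.24 ± 0.058, edgeR adjusted p = 0.00487) and Rrm2 (-0.61 ± 0.078, edgeR adjusted p = 3.53e-07). The higher one was Kif11 (0.41 ± 0.093, edgeR adjusted p = 0.00242). All 4 held without each library in turn. All mutants of run 1 were set against the same 6 GRwt/wt libraries, so the repeated differences of Ccnd1 and Kif11 are not independent of each other.

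**Figure D3:**
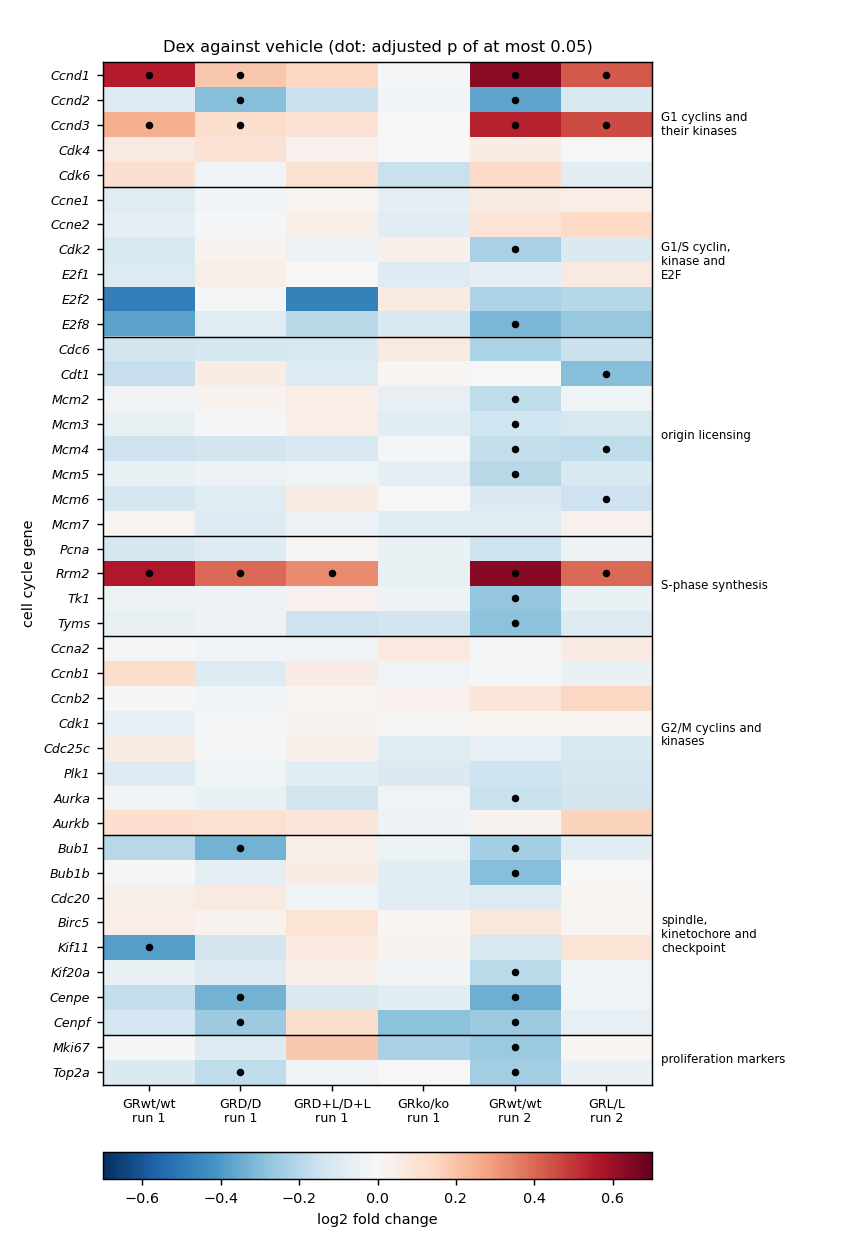
Log2 fold change of Dex against vehicle for the 41 cell cycle genes (rows, by role) in the 6 genotype and run combinations (columns), with a dot where the edgeR adjusted p was at most 0.05. Rrm2 is red with a dot in every column but GRko/ko, and dots on blue cells collect in the GRwt/wt column of run 2.

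Over the 6 Dex comparisons, Rrm2 was called in 5 (as were 2.07% of all genes tested), Ccnd1 and Ccnd3 in 4 (4.88% of the 41, against 2.68%) and 6 further genes in 2 (14.6%, against 11.3%). In 1 comparison 14 genes were called (34.1%, against 19.9%) and in none 18 genes (43.9%, against 58.0%). The 18 included Cdk4 and Cdk6, the partners of the D-type cyclins, both cyclin E genes (Ccne1 and Ccne2), E2f1, the clamp Pcna, and Ccna2, Ccnb1, Ccnb2, Cdk1 and Plk1 among the genes of mitotic entry. Their log2 changes lay between -0.49 and 0.16, and the lowest belonged to E2f2 with its few reads (GRwt/wt run 1, edgeR adjusted p = 0.237). Cdc20, which activates the anaphase-promoting complex, and the survivin gene Birc5 were among the 18 as well.

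The Dex responses of GRwt/wt cells also differed between the runs. Of the 41, 2 were higher in run 2 (4.88%, against 3.20% of all genes tested) and 2 lower (4.88%, against 3.89%). Ccnd3 and Kif11 were higher, by 0.29 and 0.28, and Ccnd2 and Bub1b lower, each by 0.28 on the log2 scale (edgeR adjusted p = 0.000705, 0.0492, 0.0201 and 0.0204). Kif11 was at 47.5, 47.9 and 48.3 CPM with vehicle and at 41.9, 45.6 and 45.7 CPM with Dex in run 2, a log2 change of -0.11 that did not pass (edgeR adjusted p = 0.133). The count of 4 fell to 1 without vehicle replicate 1 or 2 of run 1, Dex replicate 4 or vehicle replicate 5 of run 2, and to 2 without Dex replicate 1 of run 1 or vehicle replicate 6 of run 2. Where run entered as an additive term and the GRwt/wt cells of both runs were fitted as 1 condition, edgeR called 22 of the 41 genes with Dex in GRwt/wt, 3 higher and 19 lower. The share of all genes called in that fit was not counted, so these counts are not read as a result about the 41 genes. Run, sex of the cultures and culture cannot be told apart in this comparison, and Fkbp5 responded more in run 2 as well, by 1.12 on the log2 scale (edgeR adjusted p = 6.42e-11).

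Related genes outside the 41 were read from lists that were drawn up with earlier results of these data known. Of 35 other replication genes, 1 fell in GRwt/wt of run 1 (2.86%, against 6.20% of all genes tested), and in GRwt/wt of run 2 1 rose (2.86%, against 14.9%) while 8 fell (22.9%, against 16.7%). Rrm1, the large subunit of ribonucleotide reductase, was the one that rose in run 2 (0.26 ± 0.040, edgeR adjusted p = 1.81e-06), and it also rose in GRL/L (0.23, adjusted p = 3.14e-05). Of 42 other mitosis genes, 2 rose (4.76%) and 14 fell (33.3%) in GRwt/wt of run 2, where Kif23 had a log2 change of -0.33, but 1 rose (2.38%) and 3 fell (7.14%) in run 1, against the same background shares. In GRL/L none of these 42 was called by edgeR, with 2 higher and 1 lower at an unadjusted p under 0.05, while in GRD/D 3 fell (7.14%) and in GRD+L/D+L 1 rose (2.38%). Of the 35 replication genes, 1 rose (2.86%) and 2 fell (5.71%) in both GRL/L and GRD/D, and 1 rose in GRD+L/D+L, each share near or below the background of its comparison.

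Among 17 other regulators of the E2F, RB and MYB-FOXM1 systems, 3 rose in GRwt/wt of run 1 (17.6%, against 7.74%), and 5 rose (29.4%, against 14.9%) while 3 fell (17.6%, against 16.7%) in run 2. Of these, E2f6, which encodes a repressive E2F, rose in every genotype with a receptor. Its log2 change was 0.65 in GRwt/wt of run 1, 0.51 in GRwt/wt of run 2, 0.46 in GRL/L, 0.50 in GRD/D and 0.42 in GRD+L/D+L (edgeR, largest adjusted p = 8.84e-08). Myc, a growth regulator, rose by 0.27 in GRwt/wt of run 1 and by 0.90 in GRwt/wt of run 2 (edgeR adjusted p = 0.00687 and 5.61e-13). Its response in GRL/L was 0.43 lower than in GRwt/wt of run 2 (edgeR adjusted p = 0.0149). Of 7 CDK inhibitors, 1 rose in GRwt/wt of run 1 (14.3%, against 7.74%) and 4 in run 2 (57.1%, against 14.9%). None fell in either (against 6.20% and 16.7%), and the share in run 1 is that of a single gene. The most changed was Cdkn1c, which encodes p57 (0.77 and 2.09, edgeR adjusted p = 3.1e-06 and 4.59e-19). Cdkn1c also rose by 1.09 in GRL/L, 1.04 in GRD/D and 0.56 in GRD+L/D+L.

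Before Dex, the cultures of the genotypes already differed in the cell cycle genes. In GRD+L/D+L, 29 of the 41 genes were lower than in GRwt/wt of run 1 (70.7%, against 15.9% of all genes tested) and 1 was higher (2.44%, against 13.9%). The median log2 difference of the 41 was -0.39, while that of all genes was -0.01. All 30 calls held without each library in turn. All 8 licensing genes were lower: Mcm6, for which the promoter is printed above, stood at 38.6, 42.2 and 44.1 CPM against 67.7, 68.2 and 68.6 CPM (log2 difference -0.71 ± 0.052, edgeR adjusted p = 2.49e-13), and the loader Cdc6 at 5.44, 6.06 and 8.34 CPM against 8.70, 9.73 and 12.7 CPM. The groups did not overlap for any of the 8, which adds no support as the calls rest on the same libraries. The share of all genes without overlap was not counted. Of the 8 G2/M genes 7 were lower and of the 8 spindle genes 7, the others being Cdc25c and Cdc20. Mki67, the gene of the Ki-67 antigen that cycling cells carry, was at 74.4, 74.8 and 75.1 CPM against 124, 128 and 133 CPM (log2 difference -0.78 ± 0.080, edgeR adjusted p = 9.05e-10). Kif11 was lower by a log2 difference of -0.71 (edgeR adjusted p = 5.32e-10).

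Cyclin D1 went the other way in these cells. Ccnd1 was at 564, 568 and 599 CPM in GRD+L/D+L with vehicle, above all 3 GRwt/wt vehicle libraries at 363, 365 and 398 CPM (log2 difference 0.62 ± 0.047, edgeR adjusted p = 4.71e-13). The vehicle libraries of GRD+L/D+L overlapped the Dex-treated GRwt/wt libraries at 536, 542 and 571 CPM. The other G1 cyclins and kinases showed no call, with log2 differences of -0.01 to 0.10. Of the 7 CDK inhibitors as many were higher as lower, 3 each way (42.9%, against 13.9% of all genes higher and 15.9% lower). The higher ones were Cdkn2a (0.66), Cdkn1a (0.35) and Cdkn1c (0.69). The 3 lower ones are left unnamed only because at most 3 genes per list were named, so the list as a whole leaned neither way. Of the other lists, 28 of 35 replication genes (80.0%) and 37 of 42 mitosis genes (88.1%) were lower, against 15.9% of all genes, and none was higher by edgeR. All 14 macrophage markers were lower in GRD+L/D+L as well, with a summed level of 42.4 to 54.1 CPM against 268 to 478 CPM in GRwt/wt. Of the muscle markers, Des, the gene of the intermediate filament desmin, went the other way, and the summed level of 4 such markers was 122 to 140 CPM against 22.4 to 28.2 CPM. Myog and Myh3, which mark differentiating muscle, were not called. The part of either marker list in the result was not tested.

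In GRko/ko, the cell cycle genes split. Against GRwt/wt of run 1, 21 were higher (51.2%, against 24.4% of all genes tested) and 7 lower (17.1%, against 21.3%), and 18 of these 28 held without each library in turn. The median log2 difference was 0.15, beside 0.01 for all genes tested. The largest differences among the 21 were E2f2, at 6.32, 6.70 and 7.54 CPM against 1.36, 2.06 and 2.73 CPM (log2 difference 1.74 ± 0.19, edgeR adjusted p = 1.2e-09), and Cdk6, at 68.7, 78.3 and 80.7 CPM against 38.0, 38.4 and 40.2 CPM (0.97 ± 0.092, edgeR adjusted p = 3.48e-11). E2f8 followed at 19.2, 20.5 and 22.5 CPM against 9.47, 10.1 and 12.7 CPM (0.95 ± 0.12, edgeR adjusted p = 1.29e-08). None of these groups overlapped, which adds no support as the genes were called on the same libraries. The mitotic genes called were all higher: 5 of 8 G2/M genes, 6 of 8 spindle genes and both proliferation markers. Mki67 was at 202, 217 and 217 CPM (0.72 ± 0.076, edgeR adjusted p = 3.76e-10), Aurkb, the kinase of the chromosomal passenger complex, was higher by 0.60 and cyclin A2 (Ccna2) by 0.51.

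Genes of DNA synthesis in GRko/ko lay on both sides. Rrm2 was at 103, 103 and 104 CPM against 160, 161 and 178 CPM in GRwt/wt, a log2 difference of -0.69 ± 0.056 (edgeR adjusted p = 5.33e-13). The sliding clamp Pcna (-0.20), Ccne1 (-0.25) and E2f1 (-0.41) were lower too, whereas Tk1 (0.49) and Tyms (0.43) were higher. Within the hexameric MCM helicase, Mcm5 (0.47), Mcm7 (0.18) and Mcm3 (0.15) were higher, Mcm2 (-0.25) and Mcm4 (-0.28) lower, and Mcm6 (-0.05) was not called. Mcm5 stood at 55.6, 56.2 and 56.9 CPM against 38.5, 41.2 and 42.1 CPM, and Mcm4 at 70.9, 71.2 and 76.0 CPM against 86.6, 88.1 and 90.3 CPM, both without overlap. Summed over the 12 licensing and S-phase genes the level was 634 to 639 CPM against 691 to 704 CPM. The lower level of Rrm2 is about as large as the difference between these sums. The other licensing and S-phase genes together were therefore not lower. Over the 18 mitotic genes the sum was 1047 to 1069 CPM against 844 to 865 CPM. Of the related lists, 28 of 42 other mitosis genes were higher (66.7%) and 1 lower (2.38%), and 11 of 35 other replication genes were higher (31.4%) and 6 lower (17.1%), against 24.4% and 21.3% of all genes. Of the 7 CDK inhibitors 3 were higher (42.9%), Cdkn2c (1.22) among them, and 1 lower (14.3%). Of the 17 other E2F, RB and MYB-FOXM1 regulators 3 were higher (17.6%), among them the pocket protein gene Rb1 (0.87), and 5 lower (29.4%). The shares of all genes are those just given.

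Macrophage markers were far higher in GRko/ko. All 14 were called, with a summed level of 3900 to 4260 CPM against 268 to 478 CPM in GRwt/wt, and cartilage markers summed to 187, 250 and 577 CPM against 31.2 to 34.7 CPM. Muscle markers summed to 69.2 to 71.0 CPM against 22.4 to 28.2 CPM, with Des, Myog and Myh3 all higher. Their part in the vehicle differences of the cell cycle genes was not tested. With Dex the macrophage sum in GRko/ko was 3750 to 4080 CPM.

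In GRD/D, 14 of the 41 genes were higher than in GRwt/wt of run 1 (34.1%, against 5.66% of all genes tested) and none was lower (against 3.89%). At an unadjusted p under 0.05 edgeR gave 24 higher and 0 lower, and DESeq2 called 11 higher and none lower, counts with no share of all genes beside them. Of the 14, 10 were G2/M, spindle or marker genes. Cyclin B1 (Ccnb1), which activates Cdk1 at mitotic entry, stood at 26.8, 27.6 and 28.0 CPM against 19.3, 20.8 and 21.9 CPM (log2 difference 0.41 ± 0.075, edgeR adjusted p = 0.000163). Cenpe was at 60.3, 69.7 and 72.1 CPM against 52.3, 52.7 and 54.8 CPM (0.34 ± 0.079, edgeR adjusted p = 0.00327), and Top2a at 146, 163 and 164 CPM against 132, 133 and 136 CPM (0.24 ± 0.045, edgeR adjusted p = 0.000249). The groups did not overlap for these 3 genes, which adds no support to calls made on the same libraries. These 3 alone kept their call without each library in turn. The count of 14 became 6 without GRwt/wt vehicle replicate 3, 7 without GRD/D vehicle replicate 2, 9 without GRwt/wt vehicle replicate 1 and 16 without GRD/D vehicle replicate 3. None of the 5 G1 cyclins and kinases was called, and their log2 differences lay between -0.01 and 0.06. The median log2 difference of the 41 genes was 0.17, beside 0.01 for all genes tested. All 14 macrophage markers were higher in GRD/D, with a sum of 981 to 1040 CPM against 268 to 478 CPM, and their part was not tested. The vehicle libraries of GRD/D also served as the baseline of its Dex response, so that the higher vehicle level of Bub1, Cenpe and Top2a and their fall with Dex rest on the same 3 libraries.

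In GRL/L, 20 of the 41 genes were lower than in GRwt/wt of run 2 (48.8%, against 4.47% of all genes tested) and none was higher (against 6.88%). By edgeR 0 were higher and 29 lower at an unadjusted p under 0.05, and DESeq2 called 22 lower and none higher, counts with no share of all genes beside them. The called log2 differences lay between -0.32 and -0.16, and the median of the 41 genes was -0.20. Bub1b was at 42.0, 42.5 and 43.2 CPM against 50.7, 54.1 and 54.7 CPM (log2 difference -0.32 ± 0.052, edgeR adjusted p = 2.52e-05). Top2a was at 150, 162 and 162 CPM against 185, 189 and 192 CPM (-0.25 ± 0.043, edgeR adjusted p = 5.47e-05), and Kif20a, the kinesin of the central spindle, had a log2 difference of -0.23 (edgeR adjusted p = 0.000149). In each of the 20 genes the GRL/L libraries lay below all GRwt/wt libraries. This adds no support, since the 20 were called on the same libraries, and the share of all genes that separate was not counted. The 20 comprised 5 of 8 G2/M genes, 6 of 8 spindle genes, Top2a, 3 of 4 S-phase genes, 3 of 8 licensing genes (Mcm2, Mcm5 and Mcm7) and both cyclin E genes. None of the 5 G1 cyclins and kinases was called. Of the other lists, 15 of 35 replication (42.9%) and 22 of 42 mitosis genes (52.4%) were lower, against 4.47% of all genes.

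Of those 20 calls, 10 held without each library in turn, and the count was 13 without GRL/L vehicle replicate 1 or 2 or GRwt/wt vehicle replicate 6. The GRwt/wt vehicle libraries of run 2 were also the baseline of the Dex response in which 17 genes fell, so the lower levels in GRL/L and the fall with Dex in GRwt/wt share 3 libraries. All 14 macrophage markers were higher in GRL/L, with a sum of 1140 to 1350 CPM against 616 to 657 CPM, while 20 of the 41 genes were lower. In GRD+L/D+L all 14 markers and 29 of the 41 genes were lower. Of the other markers tested in GRL/L, 3 of 8 for cartilage were higher (37.5%, against 6.88% of all genes). Lower were 3 of 4 epithelial (75.0%), 2 of 3 muscle (66.7%) and 1 of 8 fibroblast markers (12.5%), against 4.47%. The part of any marker list was not tested.

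Over the 4 vehicle comparisons, 8 of the 41 genes were called in each, namely Mcm5, Mcm7, Ccna2, Ccnb1, Bub1, Bub1b, Kif11 and Top2a (19.5%, against 2.22% of all genes tested). All 8 were higher in GRD/D and GRko/ko and lower in GRD+L/D+L than in GRwt/wt of run 1, and lower in GRL/L than in GRwt/wt of run 2, a set of directions that 19 of all genes tested (0.123%) had and that was picked out after the values were seen. The helicase subunit Mcm7 was at 55.0, 55.0 and 55.7 CPM in GRD/D, 55.0, 56.3 and 57.1 CPM in GRko/ko, 36.8, 39.4 and 41.7 CPM in GRD+L/D+L and 46.8, 50.4 and 51.6 CPM in GRwt/wt of run 1. In run 2 it stood at 54.0, 55.7 and 57.9 CPM in GRL/L and 62.1, 67.2 and 68.4 CPM in GRwt/wt. The 3 run 1 mutants share the GRwt/wt vehicle libraries, so these differences are not independent of each other.

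Cdk4 and Ccnd2 were called in none of the 4, with log2 differences between -0.06 and 0.10. Cdk4 ran from 279 to 325 CPM over the 12 vehicle libraries of run 1 and from 413 to 439 CPM over the 6 of run 2. Rrm2 was lower in GRL/L (-0.16), GRD+L/D+L (-0.38) and GRko/ko (-0.69) and was not called in GRD/D (-0.08, edgeR adjusted p = 0.428). Rrm2 thus had its highest level with vehicle, 153 CPM and above in run 1, in the genotypes GRwt/wt and GRD/D. Tyms, which makes thymidylate, was higher in GRD/D and GRko/ko, lower in GRL/L and at 24.0, 26.7 and 27.1 CPM in GRD+L/D+L beside 25.4, 25.9 and 26.6 CPM in GRwt/wt.

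**Figure D4:**
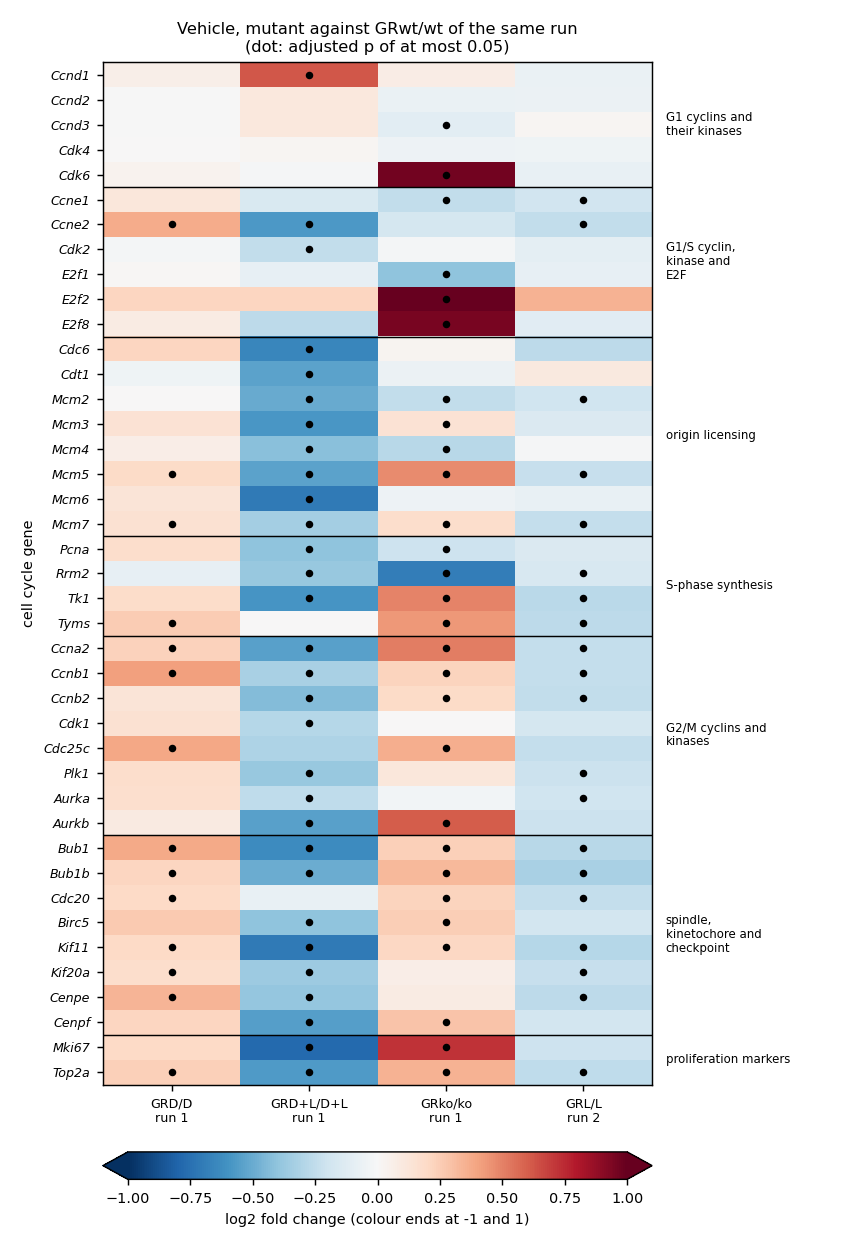
Log2 fold change of each mutant against GRwt/wt of the same run in vehicle libraries for the 41 cell cycle genes (rows, by role; colour ends at -1 and 1, and E2f2 in GRko/ko lies beyond at 1.74), with a dot where the edgeR adjusted p was at most 0.05. The GRD+L/D+L and GRL/L columns are mostly blue, GRD/D mostly pale red, and GRko/ko holds both colours among licensing and S-phase genes.

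**Figure D5:**
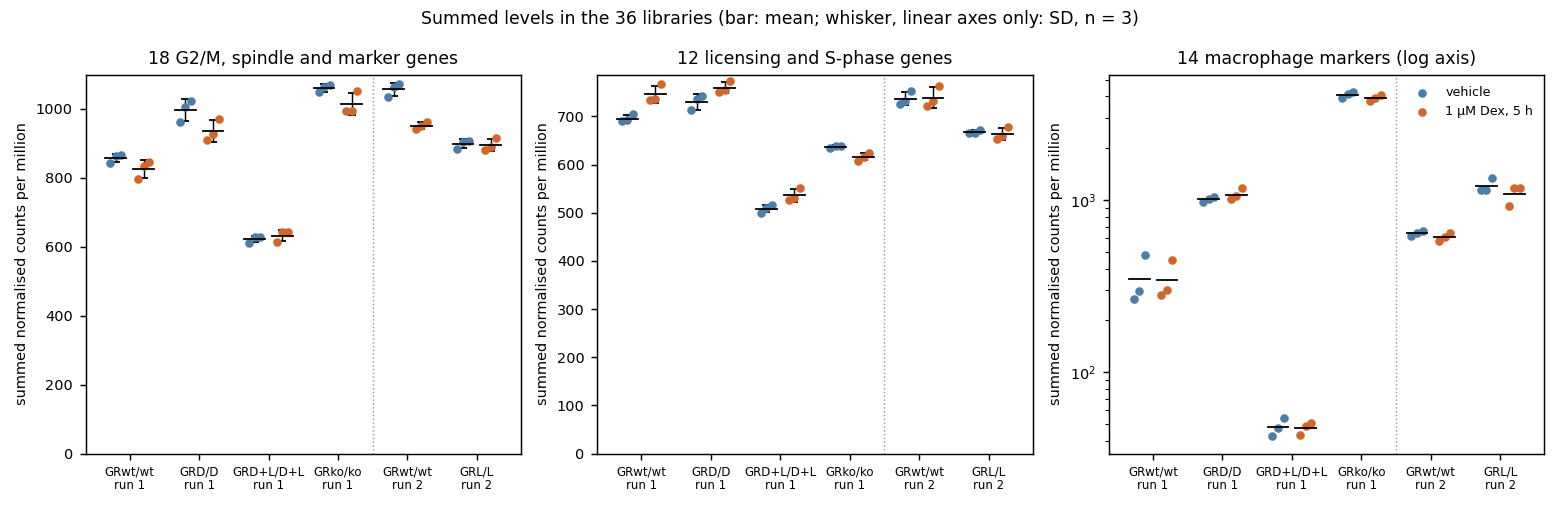
Summed normalised CPM of the 18 G2/M, spindle and marker genes, of the 12 licensing and S-phase genes and of 14 macrophage markers (log axis) in each of the 36 libraries, with a bar for the mean and, on the linear axes, a whisker for the SD (n = 3). GRD+L/D+L is lowest in all 3 panels, at 611 to 642 CPM for the mitotic sum, and GRko/ko is highest in the macrophage panel.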

How the data were processed

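MEFs of 5 GR genotypes received vehicle or 1 µM Dex for 5 h, with 3 replicates in each of 12 groups and 36 libraries over 2 runs. The authors mapped reads to mm10 with HISAT2 2.1.0 and assigned those with a unique position to genes by featureCounts 2.0.0, and the values deposited are raw counts. The annotation and strand setting of the counting are not given in the sources used here. Counts of 15489 genes that passed filterByExpr (99.93% of all counts) were fitted together in edgeR 4.0.16 (R 4.3.3) with 1 mean per genotype, treatment and run, TMM scaling and the quasi-likelihood F test. A gene was called at a Benjamini-Hochberg adjusted p of at most 0.05 over all genes tested, with no limit on fold. Each standard error was derived from the log2 fold change and its F statistic (the ratio of the fold change to the root of F), and is approximate. Alternatives were DESeq2 (1.42.0), the study's additive term for run, other filters and scalings, a fit of only the groups compared, and the omission of each library. Shares of all genes were counted for the main test at the adjusted threshold only. Counts at an unadjusted p or under an alternative therefore have no background share beside them. The share of all genes whose groups did not overlap was not counted in any comparison, so a lack of overlap adds no support to a call. The paper describes the replicates as cultures from different mice, and the biological coefficient of variation was 0.0513. All replicates of a genotype and run shared the same sex, and shared replicate numbers did not pair Dex with vehicle libraries. Whether the p-values of genotype differences cover the spread between mice was not tested. No pair of replicates agreed within sampling noise (chi-square of counts per gene 1.58 to 26.5). The members and the lists of related and marker genes were chosen with earlier results of these data known. All 41 genes were open to naming, and of each related list at most 3 per comparison, those of smallest adjusted p. RPKM used exonic lengths of GENCODE vM21, and promoters came from RefSeq GRCm38.p6.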

Additional observations from a re-analysis of the deposited data

Results flagged for a closer look

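The Dex response of several cell cycle genes differed between genotypes by the test of the difference itself (edgeR quasi-likelihood test). It differed from GRwt/wt of the same run for 1 gene in GRL/L (Bub1b), 1 in GRD/D (Ccnd1), 2 in GRD+L/D+L (Ccnd1 and Kif11) and 4 in GRko/ko (Ccnd1, Ccnd3, Rrm2 and Kif11). Between the runs of GRwt/wt cells it differed for 4 genes (Ccnd2, Ccnd3, Bub1b and Kif11). Shares of all genes tested that differed were 0.646% higher and 1.20% lower in GRL/L, 1.08% and 2.20% in GRD/D, 1.26% and 1.98% in GRD+L/D+L, 3.80% and 4.68% in GRko/ko, and 3.20% and 3.89% between runs. Of the 41 genes, 2.44% were higher in GRL/L, 2.44% lower in GRD/D and 2.44% each way in GRD+L/D+L. In GRko/ko 2.44% were higher and 7.32% lower, and between runs 4.88% each way. A single gene is 2.44% of the 41, so these counts were near the background. They are not read as a result about the 41 genes as a set. The Bub1b call in GRL/L was lost in 6 of 12 fits that left out 1 library, and of the 4 between runs only Ccnd3 held in every such fit.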

How the results depend on the processing

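Of 143 calls of single cell cycle genes none reversed under any alternative run. Calls lost numbered 7 by DESeq2, 5 with its size factors, 20 without a filter on low counts (32584 genes tested), 4 with at least 10 counts in every library (11959 genes), 12 of 139 in the additive run model, and 29 when only the groups compared were fitted (fewer samples). Leaving out 1 library at a time lost 51 calls in at least 1 fit, and counts of calls then ran from 4 to 5 (GRwt/wt run 1), 15 to 18 (GRwt/wt run 2), 3 to 8 (GRL/L), 3 to 9 (GRD/D), 1 to 1 (GRD+L/D+L) and 0 to 0 (GRko/ko) for Dex. They ran from 0 to 2 (GRL/L), 1 to 1 (GRD/D), 2 to 3 (GRD+L/D+L), 4 to 4 (GRko/ko) and 1 to 4 (between runs) for response differences, and from 13 to 17 (GRL/L), 6 to 16 (GRD/D), 30 to 31 (GRD+L/D+L) and 22 to 26 (GRko/ko) for vehicle levels.

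Counts that moved by over 1.5 times were as follows, and the cause was not tested beyond the construction named. The additive run model, which pools GRwt/wt of both runs, gave 22 Dex calls in GRwt/wt and response differences of 2 genes in GRD/D and 4 in GRD+L/D+L. Fitting only the groups compared gave 7 Dex calls in GRwt/wt run 1, 2 in GRD/D and 5 in GRD+L/D+L, response differences of 0 genes in GRL/L, 4 in GRD+L/D+L and 1 between runs, and 2 vehicle calls in GRD/D. Without a filter there were 2 Dex calls in GRko/ko, 2 response differences in GRL/L and 9 vehicle calls in GRD/D. DESeq2 gave 2 Dex calls in GRD+L/D+L. With an absolute log2 change of at least 1 required, 0 genes remained in each Dex and vehicle comparison, apart from 1 (E2f2) for vehicle in GRko/ko.

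Shared replicate numbers did not pair the samples (18 pairs, r from -0.135 to 0.197, 7 Dex libraries closest to their own number). With the replicate block the Dex counts were 5, 19, 7, 7, 1 and 0 (GRwt/wt run 1, GRwt/wt run 2, GRL/L, GRD/D, GRD+L/D+L, GRko/ko), and response differences were 1, 1, 2, 4 and 3. The block was not run for vehicle levels, nor the additive model between runs. Depth limits E2f2 most, with as few as 21 reads.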
